A study of Mus musculus with 18 samples.

Results

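Dendritic cells grown from mouse bone marrow and wild type for Ubc9 were compared after 6 h of lipopolysaccharide (LPS) with cells that received none. Each condition was measured on 3 arrays, so 6 of the 18 arrays in the series were compared, chosen by genotype and stimulation in the labels. Marrow cells had been cultured for 10 days in RPMI medium with 10% fetal bovine serum, penicillin and streptomycin and 20 ng/ml GM-CSF, the growth factor that drives their development. All arrays, wild-type ones included, came from cultures that received 4-hydroxytamoxifen (100 nM) on day 6, and LPS was used at 10 ng/ml. The labels do not say which Cre, if any, or which cells carried the deletion, and that part of the model is not given in the sources used here. Wild-type cells after 1 h of LPS (3 arrays) and Ubc9 knockout cells without LPS or after 6 h of it (3 arrays each), treated in the same way, serve below to place the wild-type response. All 18 arrays, those of knockout cells after 1 h of LPS included, also entered the fit, so they share in the spread behind each standard error and p-value. Replicates are called biological in the series design, without saying whether they came from separate mice, so p-values measure the spread between these cultures.

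Dendritic cells take up microbes and present their antigens to T cells. LPS, a component of Gram-negative bacterial walls, is handed by Cd14 to the receptor Tlr4 and its partner Ly96 (MD-2). One branch of signalling, through the adaptor Myd88, activates NF-kB and AP-1 factors and with them cytokine genes. The other, through Ticam1 (TRIF) and the kinases Tbk1 and Ikbke, leads to type I interferon, which acts back on the cells and turns on antiviral genes. Inhibitors that are induced in the same response, such as Nfkbia and Tnfaip3, then limit it.

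Values are log2 signals, so a difference of 1 is a 2-fold change, and they say nothing about cell number: fewer cells of a type and less RNA per cell cannot be told apart. Differences are given as 6 h minus unstimulated with the standard error (SE) from limma, n = 3 arrays per group, and a gene was called at a Benjamini-Hochberg adjusted p under 0.05 over all 19938 genes. By this rule 844 genes rose (4.23%) and 770 fell (3.86%). Of these, 265 rose at least 2-fold (1.33% of the genes tested) and 94 fell at least 2-fold (0.471%). The median difference of all genes was −0.01. With dim genes left out (those with no group mean of 6 or more), 945 of 9540 genes rose and 907 fell, larger shares than over all genes. The list counts below are to be read against both shares, and a count near them shows nothing particular to a list. The 3 values of each group did not overlap for 11.1% of genes in the upward direction and for 12.4% in the downward direction. Replicate numbers paired the wild-type arrays, and with the number as a block 1451 genes were called higher (7.28%) and 1551 lower (7.78%). Of the fits without 1 array, those without 6 h array 2 or 3 gave the fewest calls, 901 and 986 in both directions together, against 1614 with all arrays. A fit of only the compared groups gave 1178. A call of this comparison given below with no remark was kept in each of 8 other settings that tested the gene and in the 6 fits that leave out 1 array.

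Pairs of arrays of the same wild-type group had a Pearson's r of 0.983 to 0.993 over the probe sets, and the median signal of the 6 arrays lay between 5.01 and 5.09. The pan-myeloid and dendritic marker Itgax (CD11c) stood at 11.04, 11.09 and 11.10 without LPS and at 11.14, 11.22 and 11.17 at 6 h. Of 15 markers of conventional dendritic cells 0 were called (2 higher with the replicate block), and Btla, Clec9a, Dpp4 and Xcr1, which include the defining genes of the cross-presenting subset, had means under 5. The mean of the dendritic list was 6.20 to 6.57 without LPS and 6.25 to 6.68 at 6 h. Of 12 macrophage and monocyte markers 2 were called higher (4 higher and 2 lower with the replicate block). The mean of that list lay above that of the dendritic list on every array, at 7.85 to 8.37 without LPS and 8.20 to 8.52 at 6 h. The level of the macrophage list therefore moved somewhat with LPS, in part through the LPS co-receptor Cd14, 1 of the 2 called markers. The list's part in the results was not tested. In the lists for plasmacytoid dendritic, B, T and NK, mast, erythroid and stromal cells 0 genes were called (1 plasmacytoid and 1 erythroid gene with the block), and the neutrophil list had 1 call, which was lost without some arrays (2 higher and 1 lower with the block). A list of germline and other silent genes, a guide to the lowest readable signal, averaged 3.95 to 4.06 on every wild-type array. Where a gene started near that level, as Ifit1, Il6 and Mx2 did, the size of its rise is uncertain.

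The 20 largest rises combined neutrophil chemoattractants, cytokines, interferon-inducible antiviral genes and enzymes of inflammatory mediators. The chemokine Cxcl3 gave the largest difference: 5.06, 6.16 and 5.96 without LPS and 11.11, 12.04 and 11.93 at 6 h. It rose by 5.97 ± 0.47 (adjusted p = 1.1e-06), which is 62.5-fold. Cxcl10, a ligand of the T cell receptor Cxcr3, had 5.18, 5.27 and 4.31 without LPS and 9.67, 10.76 and 11.15 at 6 h, a rise of 5.61 ± 0.58 (adjusted p = 1.4e-05). Every 6 h value of both genes lay more than 4 log2 units above the highest unstimulated one. Acod1, which makes the metabolite itaconate, stood at 7.49, 7.12 and 7.72 and then at 12.03, 12.23 and 12.32 (4.75 ± 0.41, adjusted p = 3.2e-06). Its 3 values at 6 h lay closer together than those of Cxcl10. Further members of the 20 were Saa3, an acute-phase serum amyloid (4.21 ± 0.55), Gpr84, a receptor for medium-chain fatty acids (3.78 ± 0.32), Lcn2, which binds bacterial iron carriers (3.71 ± 0.33), and Fabp3, a fatty acid-binding protein (3.58 ± 0.55). Ptx3, a secreted pattern-recognition protein, rose by 3.42 ± 0.57. Ifi205, of the family of DNA-binding Ifi200 genes, had the widest error of the 20 (4.20 ± 1.00, adjusted p = 0.014), and its call was lost without unstimulated array 2 (0.058) or 3 (0.051) and without 6 h array 2 (0.056) or 3 (0.065).

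**Figure D1:**
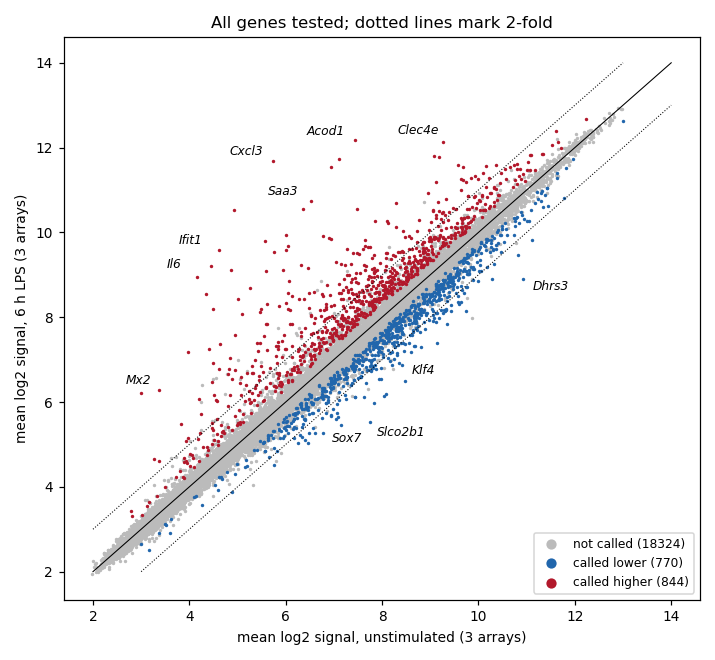
Mean log2 signal of each gene without LPS (x axis) and after 6 h of LPS (y axis) in wild-type cells, 3 arrays per mean. Red points are the 844 genes called higher, blue points the 770 called lower, grey points the rest; rises reach 5.97 (Cxcl3) while the deepest named fall is −2.21 (Slco2b1).

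The genes through which cells sense LPS moved in both directions. Of 17 measured LPS and Toll-like receptor genes, 5 rose and 3 fell, and the list's median was 0.04. Cd14, the co-receptor that delivers LPS, stood at 8.89, 8.95 and 9.51 without LPS and at 10.73, 11.30 and 11.53 at 6 h (2.07 ± 0.25, adjusted p = 7.2e-05). Tlr2, the receptor for bacterial lipoproteins, rose by 0.77 ± 0.09 (adjusted p = 3.2e-05). Tlr4 itself had 10.23, 10.48 and 10.04 and then 9.82, 9.94 and 9.72, a fall of 0.42 on the log2 scale with an SE of 0.11 (adjusted p = 0.025). The groups did not overlap, yet the Tlr4 call was lost without unstimulated array 1 (0.053) or 2 (0.13), without 6 h array 1 (0.064) or 3 (0.13), and with only these groups fitted (0.12). Tlr13, a sensor of bacterial ribosomal RNA (−0.65 ± 0.14), and Cnpy3, a chaperone of Toll-like receptors (−0.62 ± 0.10), also fell. The count of rises in the list was 3 without unstimulated array 1 or 2 and 2 without 6 h array 2 or 3. It was also 2 in the fit of these groups alone. The count of falls was 5 with the replicate block.

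Downstream of the receptors, 8 of 18 adaptors and kinases rose and 2 fell. The signalling adaptor Traf1 rose by 2.33 ± 0.21 (adjusted p = 4.5e-06) and the inhibitory kinase homologue Irak3 by 1.42 ± 0.13 (adjusted p = 4e-06). The kinases of the interferon branch also rose: Ikbke from 6.36, 7.30 and 6.85 to 8.10, 8.16 and 8.34 (1.36 ± 0.21), and Tbk1 by 0.70 ± 0.14. The adaptor Myd88 was at 0.34 ± 0.13 (adjusted p = 0.17), with overlapping groups, and was called with the replicate block (adjusted p = 0.012). Neither fall, in Tab1 and in Ticam1, exceeded 0.5, and both calls were lost in several fits, with adjusted p up to 0.23 for Tab1 and 0.17 for Ticam1 (both without 6 h array 2). Both also missed the threshold without unstimulated array 2 or 3, without 6 h array 3, with only these groups fitted (with and without the block) and with an intensity trend, and Tab1 without 6 h array 1, with array weights and after centring.

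All 4 measured NF-kB subunits and most of their measured kinases and feedback inhibitors rose. The subunit differences were 1.27 ± 0.15 for Relb, 1.16 ± 0.14 for Nfkb2, 0.80 ± 0.12 for Rel and 0.34 ± 0.10 for Rela. The Rela call (adjusted p = 0.048) was lost without unstimulated array 1 (0.12) or 3 (0.19) and without 6 h array 2 (0.13) or 3 (0.22), and also after centring (0.055) and with only these groups (0.18, and 0.15 with the block). Of 17 kinases and feedback inhibitors, 10 rose, 0 fell and 7 were not called. Tnfaip3 (A20), a ubiquitin-editing inhibitor of NF-kB, was at 7.24, 7.37 and 7.24 without LPS and at 9.34, 9.71 and 9.79 at 6 h (2.33 ± 0.21, adjusted p = 3.6e-06). Nfkbiz, an atypical IkB protein, rose by 2.24 ± 0.23, Nfkbie by 1.60 ± 0.21 and Nfkbia (IkB alpha) by 1.45 ± 0.17. Bcl3, another IkB relative, rose by 1.42 ± 0.23.

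Promoter sequences were read for the called riser with the smallest adjusted p among those with a RefSeq promoter entry in each of 5 lists, and 4 are shown, since these genes carry the NF-kB and interferon patterns of the response. That of Slc2a6 held none of the motifs searched. They are the 250 bases before the RefSeq start site on GRCm38.p6, matched by gene identifier (15563 of the tested genes had an entry). Capitals mark matches, on either strand, to the kB consensus motif, to the ISRE core (the interferon-stimulated response element, here 2 GAAA runs with any 2 bases between them) or to TGANTCA (an AP-1 motif). A match is a run of letters and not a shown binding site. The window of Tnfaip3 (chr10:19015411-19015660, minus strand) held a TGANTCA match and 2 places that match the kB motif:
Tnfaip3: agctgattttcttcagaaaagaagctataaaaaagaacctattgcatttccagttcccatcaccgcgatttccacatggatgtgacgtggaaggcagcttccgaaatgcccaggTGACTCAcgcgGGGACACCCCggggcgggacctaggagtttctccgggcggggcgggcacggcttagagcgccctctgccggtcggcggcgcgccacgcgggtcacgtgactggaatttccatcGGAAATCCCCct

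A kB match stood in 8 of 18 windows of the NF-kB lists (44.4%), in 12.7% of the windows of genes called higher, in 8.04% of those called lower, in 7.86% of those of all tested genes and in 7.01% of all 27025 windows. These shares describe the windows and were not tested.

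Cytokine genes rose in a minority of the list but by large amounts. Of 27 cytokines, 11 rose, 1 fell and 15 were not called, with a median of 0.46. Il6, a cytokine of fever and acute-phase responses, had 4.36, 4.66 and 3.45 without LPS and 7.57, 9.43 and 9.85 at 6 h (4.79 ± 0.50, adjusted p = 1.5e-05). The 6 h array 1 was the lowest by nearly 2 log2 units. Il1b rose from a mean of 7.11 ± 0.15 to 11.73 ± 0.42 (SD, n = 3), with all 6 h arrays above all unstimulated ones (4.61 ± 0.35, adjusted p = 9e-07), and Il1a by 2.60 ± 0.17. Both encode interleukin 1 ligands. Il12b, the p40 subunit shared by interleukins 12 and 23, rose by 3.18 ± 0.37, from 5.46, 6.45 and 5.90 to 8.74, 9.0 and 9.59. Tnf, already at 9.17, 8.90 and 9.17, reached 11.61, 11.91 and 11.87 (2.72 ± 0.21). The fall, in Il16 (−0.64 ± 0.19, adjusted p = 0.044), was lost in each fit without 1 array other than 6 h array 1, with adjusted p up to 0.19, and after centring (0.061). In the TNF superfamily, 6 of 21 genes rose and 3 fell. Tnfsf15, a T cell co-stimulating ligand, rose by 3.49 ± 0.28, Tnfsf9 (4-1BB ligand) by 2.17 ± 0.34 and the death receptor Fas by 1.96 ± 0.20. Tnfrsf1b, one of the TNF receptors, rose by 0.70 ± 0.10, while the receptor Tnfrsf21 was at −0.53 ± 0.11 (adjusted p = 0.005). The count of falls was 1 without unstimulated array 2, without 6 h array 3 or in a fit of the compared groups alone.

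Chemokines of both main classes rose in part. Of 14 CXC and CX3C chemokines, 7 rose and 0 fell, with a median of 0.97. Cxcl2, a neutrophil attractant, was at 6.54, 7.20 and 7.06 and then at 11.21, 11.72 and 11.69 (4.61 ± 0.30, adjusted p = 2.9e-07). Cxcl1, of the same class, rose by 2.41 ± 0.34 and Cxcl16, a scavenger receptor and chemokine, by 1.36 ± 0.26. The Cxcr3 ligand Cxcl9 was at 4.34, 4.81 and 4.26 and then at 4.85, 6.73 and 7.87 (2.01 ± 0.59, adjusted p = 0.046). Its 6 h array 1 lay barely above the unstimulated arrays, and the call was lost in every fit without 1 array other than 6 h array 1 (adjusted p up to 0.25), with only these groups (0.12) and after centring (0.051). Of 14 CC chemokines, 6 rose and 0 fell, with a median of 0.18. Ccl5 (RANTES) rose from 9.48, 10.16 and 9.39 to 10.91, 11.60 and 12.11 (1.86 ± 0.32, adjusted p = 0.0013), and Ccl4 by 1.44 ± 0.28. The monocyte attractant Ccl2 stood at −0.14 ± 0.39 (adjusted p = 0.94). The CC count was at most 4 in the fits without 1 array, with 3 without unstimulated array 1 or 6 h array 3 and 2 without 6 h array 2. The calls of Ccl22, Ccl17, Ccl9 and Ccl3 were each lost in some of these fits. Among 17 chemoattractant receptors, Ccrl2, which binds chemerin, was the 1 called riser (2.96 ± 0.23, adjusted p = 1.1e-06), and 2 fell. With the block, 4 were called higher and 5 lower, and Ccr7, which guides dendritic cells to lymph nodes, was among the 4 (9.83, 8.71 and 8.01 without LPS and 10.47, 9.48 and 9.12 at 6 h, adjusted p = 0.26 without and 0.0011 with the block). Without unstimulated array 1 the riser count was 2. The count of falls was 0 without unstimulated array 2 or 6 h array 2 and 1 without unstimulated array 3 or 6 h array 1 or 3. The Cxcl2 window (chr5:90903649-90903898, plus strand) held overlapping kB matches on both strands:
Cxcl2: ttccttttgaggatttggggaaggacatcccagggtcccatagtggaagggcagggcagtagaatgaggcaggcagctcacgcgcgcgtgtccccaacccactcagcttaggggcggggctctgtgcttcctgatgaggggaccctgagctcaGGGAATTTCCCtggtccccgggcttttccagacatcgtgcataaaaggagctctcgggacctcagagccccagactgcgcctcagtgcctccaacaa

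Interferon-inducible genes gave the highest list medians of the response. Of 37 antiviral genes, 23 rose, 0 fell and 14 were not called, with a median of 1.44. The mean level of the 37 genes was 6.75, 6.59 and 6.78 without LPS and 7.84, 8.53 and 8.79 at 6 h, so that 6 h array 1 lay between the unstimulated arrays and the other two 6 h arrays. Ifit1, which binds viral RNA caps, showed the same order with 4.64, 4.47 and 4.73 and then 8.28, 10.00 and 10.47 (4.97 ± 0.45, adjusted p = 3.8e-06). Its relatives Ifit3 (4.77 ± 0.43) and Ifit2 (4.27 ± 0.52) rose too. Rtp4, an interferon-induced inhibitor of viral replication, was at 6.02, 4.88 and 5.79 and then at 9.07, 9.97 and 10.33 (4.23 ± 0.33, adjusted p = 1.1e-06). Rsad2 (viperin) rose by 3.94 ± 0.55 and Mx2, an antiviral GTPase, by 2.92 ± 0.54. All 6 genes had their lowest 6 h value on array 1. The nuclease Samhd1, also in the list, stood at −0.27 ± 0.15 (adjusted p = 0.41). Without 6 h array 2 or 3, the arrays with the highest levels, 15 and 14 antiviral genes were called.

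Of 8 measured interferon-inducible GTPases, which attack the vacuoles of intracellular microbes, 5 rose, with a median of 1.63. Gbp5 was at 6.59, 5.89 and 5.63 and then at 9.03, 9.74 and 10.25 (3.64 ± 0.43, adjusted p = 5.1e-05), Gbp3 rose by 2.71 ± 0.35 and Irgm1 by 1.67 ± 0.33. Of 14 Schlafen and interferon-linked PARP genes, 9 rose (median 1.01), led by Slfn8 (2.39 ± 0.43) and Parp14 (2.17 ± 0.33). Of 15 cytosolic sensors, 12 rose and 1 fell (median 0.77), among them the viral RNA sensors Ifih1 (MDA5, 2.13 ± 0.34) and Ddx58 (RIG-I, 2.03 ± 0.30). Their shared adaptor Mavs went the other way, from 9.08, 9.14 and 9.17 to 8.75, 8.74 and 8.70 (−0.40 ± 0.10, adjusted p = 0.016), although this call was lost without unstimulated array 3 (0.053) and without 6 h array 2 (0.055) or 3 (0.067). The sensor count was 5 without 6 h array 2 and 5 without array 3. Of the transcription factors behind these genes, Irf7 rose by 2.69 ± 0.39, Irf1 by 1.62 ± 0.31 and Irf9 by 1.14 ± 0.14, 3 of 12 measured genes of interferon production and its regulation. The interferon genes Ifnb1 and Ifna4 of that list, named after their values were seen, had means under 5 both without LPS and at 6 h. Neither was called. Jak2, a cytokine receptor kinase, rose by 1.51 ± 0.15, 1 of 2 rises among 19 receptors, JAKs and STATs, and Il6ra, the interleukin 6 receptor, was the 1 that fell (−0.96 ± 0.13). With the block 7 of the 19 rose and 2 fell. The count of rises was 1 without unstimulated array 2 or 3 or 6 h array 2, and 2 fell without 6 h array 1. The windows of Ifit3 (chr19:34583279-34583528, plus strand), with 2 ISRE core matches and a TGANTCA match, and Gbp5 (chr3:142496684-142496933, plus strand), with 1 ISRE core match and a kB match, were:
Ifit3: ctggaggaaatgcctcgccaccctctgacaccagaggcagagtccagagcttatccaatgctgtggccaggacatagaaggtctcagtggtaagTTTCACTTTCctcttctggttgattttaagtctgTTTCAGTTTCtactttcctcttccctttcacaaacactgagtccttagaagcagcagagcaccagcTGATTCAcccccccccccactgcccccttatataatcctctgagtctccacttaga
Gbp5: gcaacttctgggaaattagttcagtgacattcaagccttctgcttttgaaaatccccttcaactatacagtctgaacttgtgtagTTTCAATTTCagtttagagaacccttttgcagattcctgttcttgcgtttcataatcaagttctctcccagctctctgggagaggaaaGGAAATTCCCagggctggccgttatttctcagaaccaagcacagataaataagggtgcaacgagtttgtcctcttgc

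The ISRE core stood in 13 of 34 windows of the antiviral and GTPase lists (38.2%), in 5.19% of windows of genes called higher, 2.09% of those called lower, 2.92% of those of all tested genes and 3.04% of all windows. In the NF-kB lists it stood in 0 of 18 windows. The other motifs had matches in both sets of lists, and kB matches had the larger share in the NF-kB lists (8 of 18 windows, 44.4%). In the antiviral and GTPase lists a kB match stood in 6 of 34 windows (17.6%) and TGANTCA in 8 (23.5%). TGANTCA stood in 3 of 18 windows of the NF-kB lists (16.7%) and in 6.09% of those of all tested genes. These shares were not tested either.

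**Figure D2:**
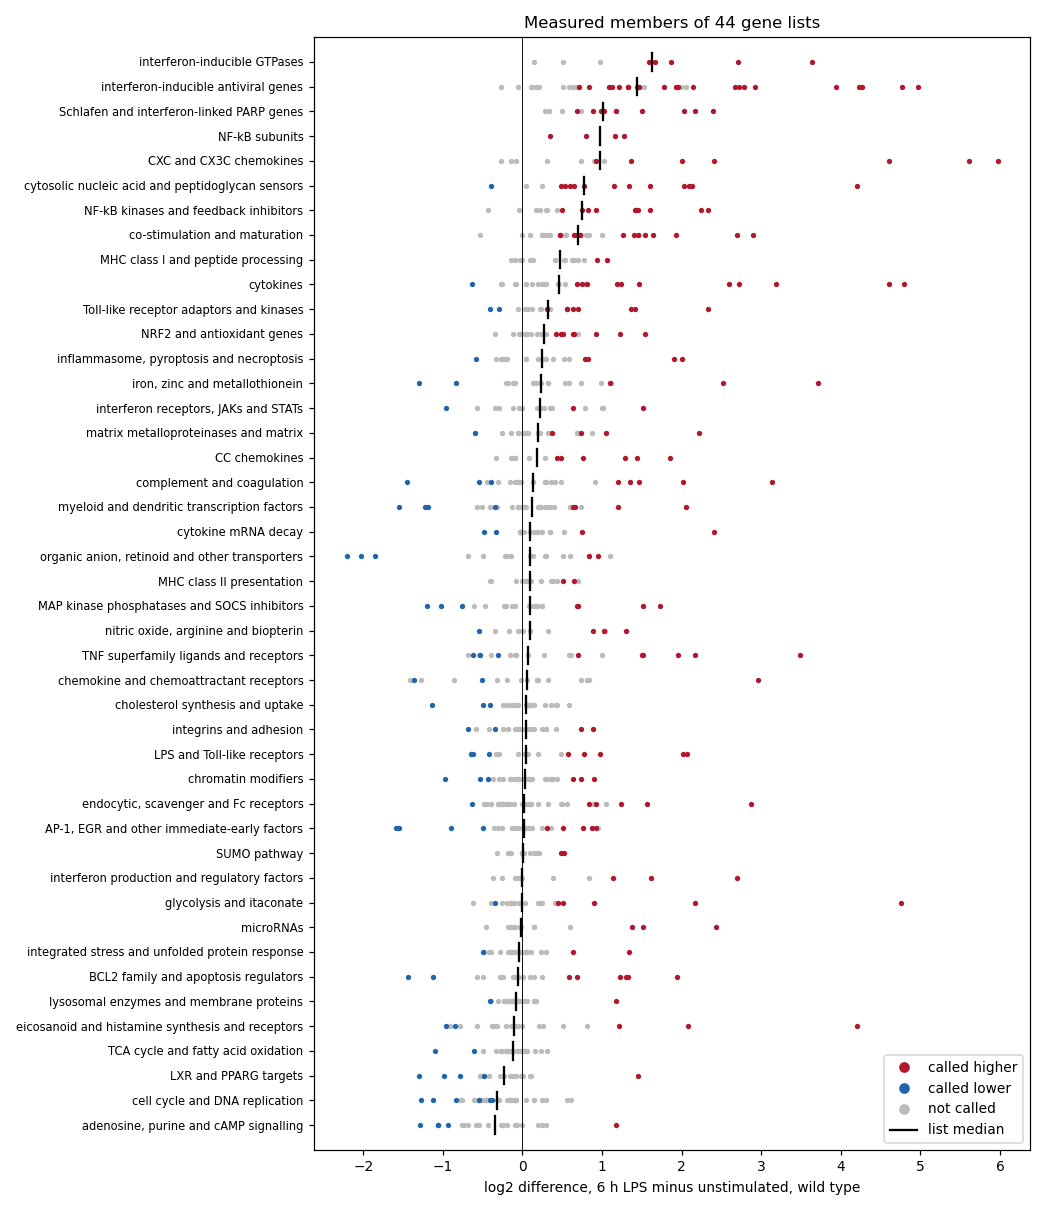
Log2 differences between 6 h of LPS and no stimulation in wild-type cells (x axis) for the measured members of 44 gene lists (rows, ordered by median). Red and blue points are members called higher and lower, grey points were not called, and black bars are list medians, which run from −0.35 for adenosine, purine and cAMP genes to 1.63 for interferon-inducible GTPases.

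Feedback and immediate-early genes were mixed at 6 h. Of 26 AP-1, EGR and other immediate-early factors, 5 rose and 4 fell, with a median of 0.02. Junb rose by 0.88 ± 0.10 (adjusted p = 3.2e-05), whereas Jun, of the same family, fell from 9.65, 9.54 and 9.70 to 8.92, 8.53 and 8.76 (−0.90 ± 0.13, adjusted p = 0.00032). The count of rises was 3 without unstimulated array 1 or 6 h array 3, 2 without unstimulated array 3 or 6 h array 2, and 1 with only these groups. Of 20 MAP kinase phosphatases and SOCS inhibitors, 4 rose and 3 fell (5 with the block). Dusp4 (1.73 ± 0.29), Socs3 (1.52 ± 0.22) and Socs2 (0.69 ± 0.14) rose, while Dusp10 (−1.20 ± 0.20), Socs6 (−1.02 ± 0.16) and Dusp3 (−0.76 ± 0.10) fell. Dusp genes encode phosphatases that switch off MAP kinases, and Socs genes encode inhibitors of cytokine receptor signalling. Dusp1, a classic early member, had 9.10, 9.0 and 9.02 and then 9.42, 9.16 and 9.07 (0.18 ± 0.19, adjusted p = 0.75). Of 19 genes of cytokine mRNA decay, the nuclease genes Zc3h12c (2.41 ± 0.17, adjusted p = 3.4e-07) and Zc3h12a (Regnase-1, 0.75 ± 0.11) rose and 2 fell. With the block 5 of them rose, and the falls numbered 0 or 1 in every fit without 1 array.

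Some enzymes of lipid mediators, itaconate and antioxidant defence rose around a largely uncalled core metabolism. Ptgs2 (COX-2), which starts prostaglandin synthesis, went from 6.40, 6.17 and 6.49 to 9.80, 10.83 and 11.02 (4.20 ± 0.30, adjusted p = 4e-07), and Ptges, which makes prostaglandin E2, rose by 2.08 ± 0.15. The prostaglandin E2 receptor gene Ptger2 fell (−0.85 ± 0.12, adjusted p = 0.00021). Of these 23 eicosanoid and histamine genes, 3 rose and 2 fell (5 and 6 with the block), with a median of −0.11. The falls numbered 1 without unstimulated array 2 or 6 h array 2 or 3. Of 22 genes of glycolysis and itaconate, 5 rose and 1 fell, with a median of −0.01. Beside Acod1 they included the sugar transporter Slc2a6, from 8.13, 8.18 and 8.02 to 10.12, 10.11 and 10.60 (2.17 ± 0.14, adjusted p = 2.9e-07), and Hif1a, a transcription factor of glycolytic genes (0.90 ± 0.14). The glycolytic enzyme Pkm was at −0.19 ± 0.10 (adjusted p = 0.31). Falls in this list numbered 3 with the block and 0 after centring, with an intensity trend and in each fit without 1 array other than that without 6 h array 3. Of 28 genes listed for the TCA cycle and fatty acid oxidation, 0 rose and 2 fell (4 with the block). The falls were in Cpt1a, the gate of mitochondrial fatty acid oxidation (−1.10 ± 0.08, adjusted p = 9e-07), and Idh1 (−0.61 ± 0.13). The enzyme of Idh1 is cytosolic and not part of the cycle itself.

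Of 20 NRF2 and antioxidant genes, 8 rose and 0 fell. The mitochondrial superoxide dismutase Sod2 was at 9.73, 9.73 and 9.59 and then at 11.04, 11.27 and 11.36 (1.54 ± 0.13, adjusted p = 3.2e-06), the cystine importer Slc7a11 rose by 1.22 ± 0.16 and the thioredoxin reductase Txnrd1 by 0.92 ± 0.11. The count was 5 without unstimulated array 1 or 6 h array 2, and 4 without 6 h array 3 or with only these groups, and 1 gene fell without unstimulated array 3. Of 13 genes of nitric oxide, arginine and biopterin metabolism, 3 rose and 1 fell. Gch1, which makes the cofactor of nitric oxide synthase, rose by 1.30 ± 0.17 (adjusted p = 0.00016). Nos2, the inducible synthase, was low throughout: 4.77, 4.46 and 4.50 and then 5.32, 5.35 and 6.13 (1.03 ± 0.26, adjusted p = 0.02), a call lost without unstimulated array 2 (0.078) or 3 (0.062) or 6 h array 3 (0.13). The list had 5 rises with the block, 1 without unstimulated array 2 or 6 h array 3, and 0 falls without 6 h array 3 or with only these groups. Iron genes shifted too: of 21, Lcn2, the haemoglobin-binding Hp (2.52 ± 0.45) and the iron importer Slc11a2 (1.10 ± 0.11) rose, and the iron exporter Slc40a1 (ferroportin, −1.30 ± 0.26) and the reductase Steap3 (−0.83 ± 0.17) fell. With the block 10 of the 21 rose.

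Maturation genes rose in part, and several missed the threshold although each numbered array of the 6 h group lay above its partner. Of 30 genes of co-stimulation and maturation, 13 rose and 0 fell, and 21 rose and 1 fell with the replicate block. Cd40, the receptor through which T cells license dendritic cells, was at 6.80, 6.44 and 5.73 and then at 9.03, 8.97 and 9.65 (2.90 ± 0.30, adjusted p = 1.2e-05). Also raised were Icam1, an adhesion molecule (1.54 ± 0.14), Icosl, a co-stimulatory ligand (1.45 ± 0.14), and Cst7, a protease inhibitor (2.70 ± 0.36). Cd86, the CD28 ligand, was named after its values were seen: it had 7.78, 6.26 and 6.06 and then 8.72, 7.32 and 7.06, a difference of 1.00 ± 0.51 (adjusted p = 0.33, and 0.0018 with the block). Its groups overlapped because array 1 was high in both. Cd274 (PD-L1) was at 0.73 ± 0.23 (adjusted p = 0.065, and 0.00073 with the block). In the MHC class I list 2 of 16 genes rose (9 with the block, 5 with only these groups), among them the proteasome activator Psme2 (0.94 ± 0.15). That count was 1 without any 1 of the unstimulated arrays or 6 h array 3. In the MHC class II list 2 of 16 rose, by at most 0.65 (5 rose and 2 fell with the block). That count was 1 or 0 in 5 of the 6 fits without 1 array, and 1 after centring or with dim genes left out. The class II chain H2-Ab1, named after its values were seen, stood at 11.70, 11.57 and 11.42 without LPS and at 11.83, 11.56 and 11.64 at 6 h (0.11 ± 0.13, adjusted p = 0.76). Of 35 endocytic, scavenger and Fc receptors 5 rose and 1 fell, and 11 rose and 7 fell with the block. Clec4e (Mincle), a receptor for mycobacterial glycolipid, led them with 9.90, 9.08 and 8.83 and then 12.16, 12.17 and 12.10 (2.87 ± 0.19, adjusted p = 2.9e-07). The rises numbered 2 without unstimulated array 2 and 3 without 6 h array 2, and the falls 0 without 6 h array 2 and 2 without unstimulated array 2 or with only these groups.

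**Figure D3:**
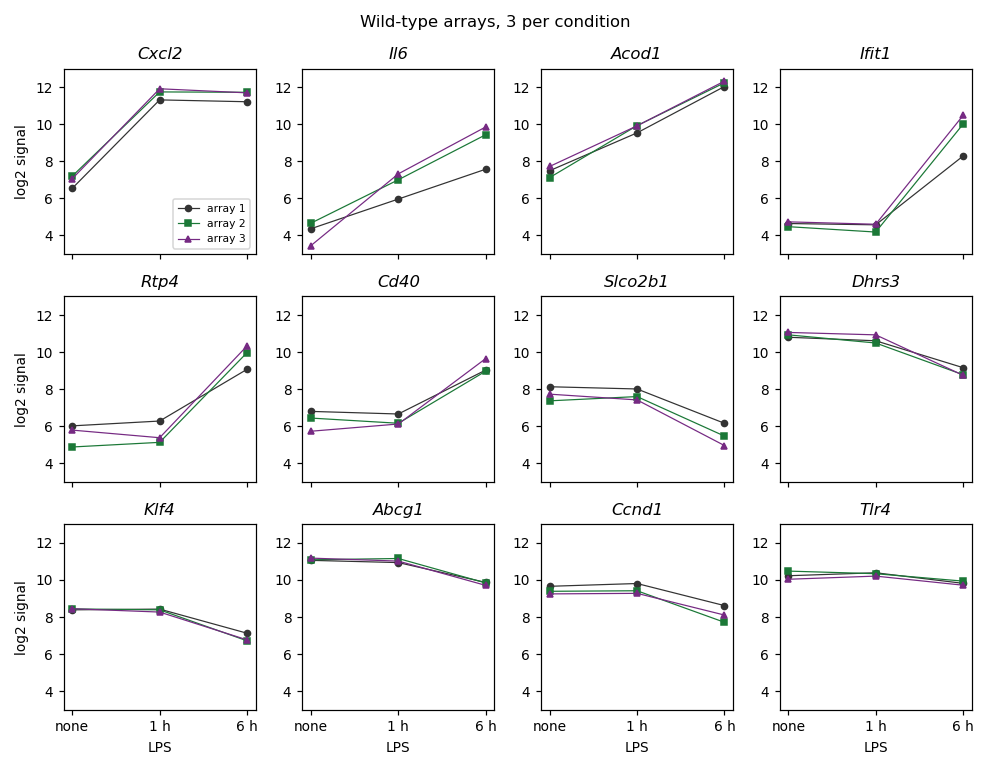
Log2 signal (y axis) of 12 genes on each of the 9 wild-type arrays without LPS, after 1 h and after 6 h (x axis). Symbols and lines mark the replicate number; Cxcl2 was near its 6 h level at 1 h, while Ifit1, Rtp4 and Cd40 were still at their unstimulated level, and 6 h array 1 is the lowest 6 h array for Il6, Ifit1 and Rtp4.

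Genes of cell death and survival, of coagulation and of the extracellular matrix also changed. Of 22 BCL2 family and apoptosis regulators, 6 rose and 2 fell (5 with the block). The caspase-8 inhibitor Cflar rose from 10.17, 10.18 and 9.97 to 11.33, 11.44 and 11.44 (1.30 ± 0.12, adjusted p = 4e-06), and the inhibitor of apoptosis Birc3 by 1.22 ± 0.12. Bcl2l1, which encodes the survival protein BCL-XL, fell (−1.13 ± 0.15, adjusted p = 0.00019). Within the growth-arrest family Gadd45, Gadd45b (1.94 ± 0.34) and Gadd45a (1.32 ± 0.15) rose and Gadd45g fell (−1.44 ± 0.24). Of 19 inflammasome and necroptosis genes 4 rose and 1 fell, a fall that was lost in every fit without 1 array other than the one without unstimulated array 1, after centring and with dim genes left out. Nlrp3, the inflammasome sensor, rose from 6.59, 6.78 and 6.39 to 8.10, 8.70 and 8.98 (2.01 ± 0.22, adjusted p = 2.6e-05). Of 26 complement and coagulation genes 5 rose (8 with the block) and 3 fell. Complement factor B, Cfb, rose by 2.02 ± 0.25, the protease inhibitor Serpinb2 by 3.14 ± 0.44 and tissue factor, F3, by 1.20 ± 0.24, while the anticoagulant receptor Thbd (thrombomodulin) fell from 7.47, 6.81 and 6.98 to 5.94, 5.67 and 5.30 (−1.45 ± 0.25, adjusted p = 0.0013). The falls of that list numbered 1 without unstimulated array 2 or 3 or 6 h array 1 or 3. The matrix proteoglycan gene Vcan rose by 2.22 ± 0.43 and the membrane protease gene Mmp14 by 1.05 ± 0.15, 2 of 4 rises among 22 matrix genes (8 with the block, beside 3 falls). The 1 fall of the fit without the block was lost in 5 of the 6 fits without 1 array.

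The 20 largest falls ran from −2.21 to −1.38, against 3.42 to 5.97 for the 20 largest rises. Slco2b1, an organic anion transporter, was at 8.13, 7.37 and 7.73 without LPS and at 6.16, 5.47 and 4.96 at 6 h (−2.21 ± 0.42, adjusted p = 0.0029). Dhrs3, which reduces retinaldehyde, went from 10.80, 10.93 and 11.06 to 9.16, 8.78 and 8.75 (−2.03 ± 0.18, adjusted p = 3.8e-06). The growth factor gene Pdgfc fell from 8.45, 8.57 and 8.39 to 7.05, 6.48 and 5.97 (−1.97 ± 0.23). In each of these genes the lowest unstimulated array lay above the highest 6 h array by more than 1 log2 unit. Also among the 20 largest falls were the fatty acid transporters Slc27a6 (−1.88 ± 0.24) and Abcd2 (−1.85 ± 0.34), the signalling inhibitor Tifab (−1.75 ± 0.29), the actin regulator Eps8 (−1.52 ± 0.16), the sialyltransferase St6gal1 (−1.52 ± 0.24), the glycosyltransferase Gcnt1 (−1.49 ± 0.27), the vitamin B6 kinase Pdxk (−1.42 ± 0.17) and the endocannabinoid lipase Daglb (−1.38 ± 0.28). Scel, an epithelial envelope protein, fell by 1.88 on the log2 scale. Calls of 4 others depended on the fit: Sox7 with only these groups (0.055), Id3 without unstimulated array 3 (0.053) or 6 h array 2 (0.076), Tmem37 without the same arrays (0.061 and 0.065), and Kcne3 without unstimulated array 2 (0.12) or 3 (0.062) or 6 h array 2 (0.072) or 3 (0.14).

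Several regulators of growth and identity were among the falls. Myc, which drives growth genes, was at 9.34, 10.39 and 9.48 and then at 8.27, 8.18 and 7.98 (−1.59 ± 0.33, adjusted p = 0.0057). Klf4, a myeloid transcription factor, was nearly identical on the unstimulated arrays (8.39, 8.44 and 8.45) and stood at 7.13, 6.72 and 6.77 at 6 h (−1.55 ± 0.16, adjusted p = 1.2e-05). The retinoic acid receptor gene Rara (−1.23 ± 0.17) and Id1, an inhibitor of helix-loop-helix factors (−1.19 ± 0.20), fell, while Hivep3 (2.05 ± 0.14) and Ets2 (1.20 ± 0.17) rose. They belong to a list of 32 myeloid and dendritic factors with 4 rises and 4 falls (7 rises with only these groups and the block). Spi1 (PU.1), the factor on which myeloid cells depend, was at 11.21, 11.19 and 11.33 and then at 11.15, 11.13 and 11.28 (−0.06 ± 0.07, adjusted p = 0.78). Of 31 chromatin modifiers 3 rose (7 with the block) and 3 fell, including the deacetylase Hdac5 (−0.97 ± 0.11, adjusted p = 2.9e-05). Both counts lay near the shares of all genes with dim genes left out. The rises numbered 1 without unstimulated array 2 or 6 h array 2, and the falls 1 without 6 h array 3.

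Of 20 genes of the lipid sensors LXR and PPARG, receptors and targets together, 1 rose and 4 fell (7 fell with the block), with a median of −0.23. The falls included the nuclear receptor Pparg itself, from 10.13, 10.06 and 9.99 to 9.26, 9.15 and 8.83 (−0.98 ± 0.21, adjusted p = 0.0073), its partner Rxra (−0.78 ± 0.14) and Abcg1, a cholesterol exporter (−1.30 ± 0.12). The rise was in another cholesterol exporter, Abca1 (1.45 ± 0.43, adjusted p = 0.046), whose call was lost without unstimulated array 1 (0.11) or 2 (0.17) and without 6 h array 2 (0.11) or 3 (0.23). Of 24 cholesterol genes 0 rose (2 with the block) and 3 fell, led by Dhcr7, the last enzyme of synthesis (−1.14 ± 0.17). Of 38 cell cycle and replication genes 0 rose and 6 fell, and with the block 1 rose and 15 fell. Cyclin D1, Ccnd1, went from 9.66, 9.39 and 9.25 to 8.62, 7.72 and 8.11 (−1.28 ± 0.19, adjusted p = 0.00042) and Ccnd3 fell too (−1.13 ± 0.21). The replication clamp Pcna stood at −0.11 ± 0.09 (adjusted p = 0.63). The count of falls was 3 after centring, without unstimulated array 3 or without 6 h array 3, and 2 without unstimulated array 2 or 6 h array 2. Of 20 genes of adenosine, purine and cAMP signalling 4 fell (9 with the block) and 1 rose: the ecto-enzyme Nt5e (CD73, −1.29 ± 0.22), Rgs2 (−1.06 ± 0.15), the nucleotide receptor P2ry6 (−1.06 ± 0.15) and Rgs14 (−0.94 ± 0.16) fell, and the cAMP phosphodiesterase Pde4b rose (1.17 ± 0.14). Of 36 lysosomal genes 1 rose, Aoah, the enzyme that removes acyl chains from LPS (1.18 ± 0.22, adjusted p = 0.0023), and 1 fell (3 with the block or with dim genes left out, 2 with an intensity trend or without unstimulated array 1, and 0 with only these groups fitted).

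Calls in the remaining lists were small in number, and each count is given with the size of its list. Integrins and adhesion genes had 2 rises (4 with the block) and 2 falls among 21. The falls, Itgb5 (−0.69) and Selplg (−0.35), both lost the call without unstimulated array 2, without 6 h array 2 and with only these groups, and 1 of them without unstimulated array 3, without 6 h array 3, after centring and with only these groups and the block. Of 24 genes of the integrated stress and unfolded protein response 2 rose and 1 fell (5 with the block). Asns, which makes asparagine, rose by 1.34 ± 0.21 (adjusted p = 0.00049), and the fall, in the stress factor Xbp1 (−0.50), was lost in the fits that left out unstimulated array 1 or 6 h array 2 or 3 or held the compared groups alone. Of 19 transporters and retinoid genes, a list drawn up from falls seen earlier in these data and so no independent evidence of direction, 2 rose and 3 fell (6 and 5 with the block, 4 rises with only these groups or without unstimulated array 1). Of 15 SUMO pathway genes 2 rose and 0 fell (1 fell without unstimulated array 1). Both rises, in the protease gene Senp6 (0.52 ± 0.14) and in Ranbp2, a SUMO ligase of the nuclear pore (0.49 ± 0.13), were lost without unstimulated array 2, without 6 h array 2 and with only these groups fitted, with and without the block. Senp6 was also lost without unstimulated array 3 or 6 h array 1, and Ranbp2 without 6 h array 3.

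**Figure D4:**
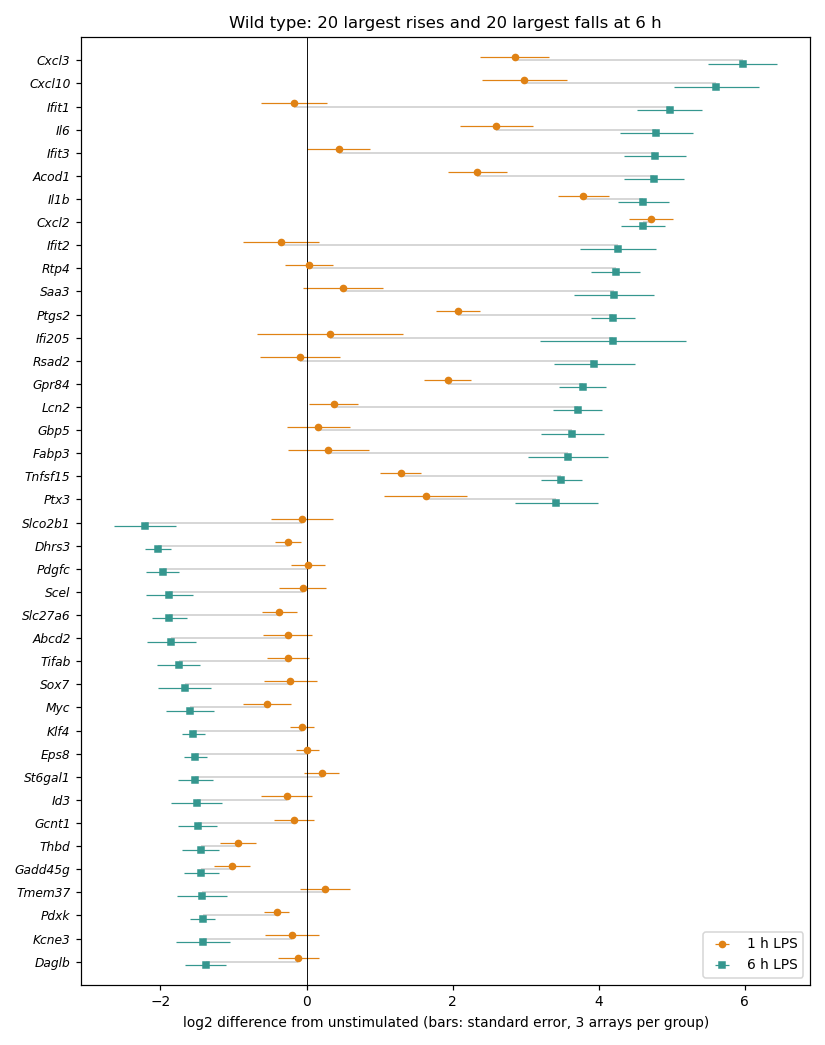
Log2 differences from unstimulated wild-type cells at 1 h (orange) and 6 h (green) of LPS for the 20 largest rises and 20 largest falls at 6 h; bars are standard errors. Cxcl2 and Il1b had most of their difference at 1 h, whereas Ifit1 and Rtp4 were near 0 then and the falling genes lay between −1.02 (Gadd45g) and 0.25 (Tmem37), none of them called.

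Of 14 microRNA genes with a probe set, 3 were called higher and 0 lower. Probe sets read the RNA of the microRNA gene, not the mature product, and match by gene identifier only. Mir155, induced through NF-kB and AP-1 in myeloid cells, was at 4.71, 4.18 and 4.58 and then at 6.38, 7.20 and 7.20 (2.43 ± 0.26, adjusted p = 1.5e-05). Mir146 (miR-146a), which targets adaptors of Toll-like receptors, was at 3.20, 3.56 and 3.05 and then at 4.49, 5.09 and 4.36 (1.38 ± 0.28, adjusted p = 0.0045), near the lowest readable signal and not tested where dim genes were left out. Mir221 was at 4.99, 6.65 and 6.11 and then at 6.94, 7.66 and 7.68 (1.51 ± 0.34, adjusted p = 0.01), a call lost without 6 h array 2 (0.058) or 3 (0.057) and with only these groups (0.065). Its neighbour Mir222, named after its values were seen, stood at 0.60 ± 0.25 (adjusted p = 0.2). The RefSeq mature sequences follow, on GRCm38.p6, with the seed (bases 2 to 8) in capitals, since the seed sets which messages a microRNA can pair with. The 3p products of Mir221 and Mir222 share the seed GCUACAU:
miR-155-5p: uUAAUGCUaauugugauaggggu
miR-146a-5p: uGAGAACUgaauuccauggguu
miR-221-3p: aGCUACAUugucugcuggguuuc
miR-222-3p: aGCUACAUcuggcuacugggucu

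Against the 1 h arrays, 606 genes were higher at 6 h (3.04%) and 573 lower (2.87%), and 2504 in all with the replicate block. After centring on the array median the balance turned, with 464 higher and 636 lower. This comparison and that with unstimulated cells share the 6 h arrays, so their values are given side by side. Cxcl2 had 11.31, 11.74 and 11.91 at 1 h, a difference from unstimulated cells of 4.72 ± 0.30, and differed between 1 h and 6 h by −0.11 (adjusted p = 0.94). Tnf and Tnfaip3 were likewise at 2.98 and 2.36 at 1 h, and their 6 h minus 1 h differences were −0.26 (adjusted p = 0.66) and −0.03 (adjusted p = 0.98). Nfkbiz stood higher at 1 h than at 6 h: 8.55, 9.18 and 9.41 against 7.54, 7.89 and 8.08 (−1.21 ± 0.23, adjusted p = 0.0038). Dusp1, at 9.75, 10.24 and 10.45 at 1 h, was lower at 6 h (−0.93, adjusted p = 0.008, and 0.052 without 1 h array 3). Against unstimulated cells, 51 genes were called higher at 1 h (0.256%) and 9 lower (0.0451%), among them 7 of the 17 NF-kB kinases and feedback inhibitors (all higher, list median 0.40) and 0 of the 37 antiviral genes. With the block these totals were 97 and 36, and this comparison was not refitted without single arrays. The antiviral list's median was −0.05 at 1 h, and Ifit1 was at 4.57, 4.18 and 4.60. It rose by 5.14 ± 0.45 between 1 h and 6 h (adjusted p = 1.1e-05), the largest of the 10 such rises taken by the naming rule. The other 9 were Ifit2 (4.62), Ifit3 (4.33), Rtp4 (4.19), Rsad2 (4.03), Ifi205 (3.87), Saa3 (3.72), Gbp5 (3.48), Lcn2 (3.34) and Fabp3 (3.28). The Ifi205 call was lost without 1 h array 1 (0.12), 2 (0.062) or 3 (0.077) and without 6 h array 2 (0.1) or 3 (0.12). Acod1 (2.34 at 1 h, 2.41 more by 6 h) and Il6 (2.60 and 2.19) were called in both steps, the later step of Il6 not without 1 h array 1 (0.082), without 6 h array 2 (0.083) or 3 (0.089) or with only these groups (0.061). Of the largest falls, Slco2b1 (−0.06 at 1 h), Pdgfc (0.02) and Scel (−0.05) changed by −2.15, −1.99 and −1.83 between 1 h and 6 h, each called. Gadd45g and Thbd, also among the 20 largest falls, stood at −1.02 and −0.94 ± 0.25 at 1 h, and neither was called (adjusted p = 0.25 for Thbd). The 6 h minus 1 h count of 1179 calls was 592 without 6 h array 2, 651 without 6 h array 3, and 781, 666 and 699 without 1 h array 1, 2 and 3.

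By profile over the 9 wild-type arrays, the genes most like Acod1 were Birc3 (Pearson's r 0.991), Dync1li1 (0.989), Ptgs2 (0.988), Serpinb2 (0.986) and N4bp1 (0.986). Those most like Ifit1 were Ifit2 (0.998), Alpk2 (0.996), Rsad2 (0.996), Parp14 (0.995) and Gbp3 (0.994). The 9 points share cultures and LPS times, so these values describe likeness only.

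**Figure D5:**
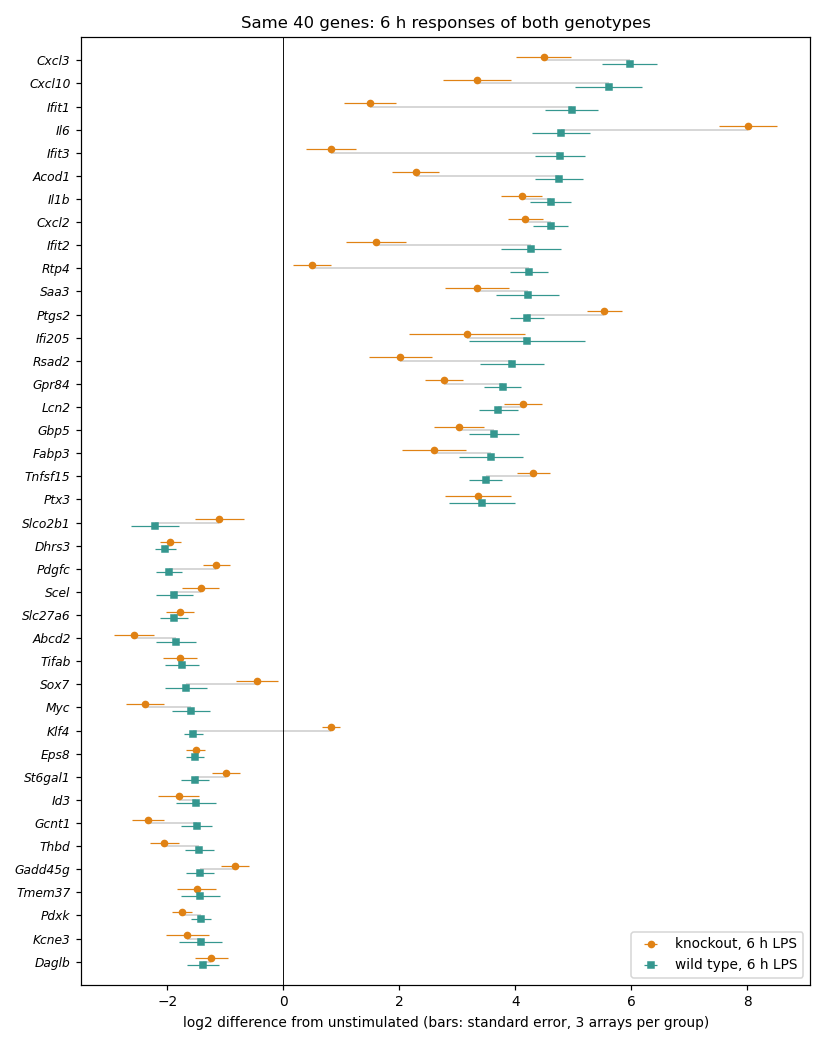
Log2 differences between 6 h of LPS and no stimulation in Ubc9 knockout cells (orange) and wild-type cells (green) for the same 40 genes; bars are standard errors. Genotypes are furthest apart for Rtp4, Ifit3, Ifit1 and Il6, and Klf4 is the gene of the 40 with opposite, called responses.

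Which of these responses differed without Ubc9 was tested by the interaction, the 6 h response of knockout cells minus that of wild-type cells (599 genes higher, 3.0%, and 1432 lower, 7.18%; 10.2% in all). With the replicate block 4347 genes were called, after centring the split was 432 higher and 1802 lower, and without unstimulated knockout array 1 or 2 the total was 1327 and 1284. Of the 20 largest rises 6 had a called interaction, and of the 20 largest falls 1. For Ifit1, Ifit2, Ifit3, Rtp4 and Acod1 the wild-type rise was the larger. The interaction compares changes, so a smaller rise in knockout cells does not mean a lower level at 6 h. The Ifit2 call (adjusted p = 0.03) was lost, at 0.052 to 0.077, without unstimulated wild-type array 1 or 2, wild-type 6 h array 2 or 3, unstimulated knockout array 2 or 3, or knockout 6 h array 2 or 3. Rtp4 was at 10.67, 10.89 and 11.15 in unstimulated knockout cells and at 11.43, 11.39 and 11.35 at 6 h, a response of 0.49 ± 0.33 against 4.23 ± 0.33 in wild-type cells (interaction −3.74 ± 0.47, adjusted p = 0.00021). Knockout cells without LPS were thus already above the wild-type 6 h level for this gene. Il6 went the other way, from 4.16, 3.97 and 3.74 to 11.90, 12.10 and 11.89 in knockout cells (8.01 ± 0.50; interaction 3.22 ± 0.71, adjusted p = 0.009). Klf4, which fell in wild-type cells, rose from 7.86, 7.84 and 7.62 to 8.81, 8.52 and 8.45 in knockout cells (0.82 ± 0.16; interaction 2.38 ± 0.22, adjusted p = 1.7e-05). For the other 33 genes the interaction was not called, which does not show that the genotypes responded alike. Cxcl10, for instance, stood at −2.26 ± 0.82 (adjusted p = 0.094) and Ptgs2 at 1.34 ± 0.42 (adjusted p = 0.053).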

How the data were processed

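Total RNA (200 ng per sample) was hybridised to GeneChip Mouse Gene ST 1.0 arrays. The authors deposited log2 signals made with RMA, per the submitters' processing notes; no version is given, and the log base was inferred from the range, 1.5 to 13.71. Of 35556 probe sets, 21789 had 1 gene symbol, 1621 several and 12146 none. For the 999 of 19938 genes with several probe sets, the brightest probe set on average was kept.

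Group means of all 6 groups (18 arrays) were fitted with limma 3.58.1 in R 4.3.3, with no filter on low values and Benjamini-Hochberg adjustment over all genes. The fit was tested on simulated data. Same-numbered wild-type arrays deviated together (r 0.15 to 0.54 in 9 pairs; −0.41 to 0.10 between numbers), so the number served as a block in an alternative. Other alternatives were only the groups compared (with and without the block), array weights, centring, the mean of a gene's probe sets, dim genes left out, an intensity trend and leaving out each array.

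Members and gene lists were chosen with earlier results of these data known, so the counts of any list are not independent evidence of direction. Named genes were the 20 largest rises and falls among called genes without group overlap, the largest called members of each list and its brightest uncalled ones, and, against 1 h, the largest changes among called genes. Predicted genes were counted and not named.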

Additional observations from a re-analysis of the deposited data

Results flagged for a closer look

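For 7 of the 40 largest changes the 6 h response of knockout cells differed from that of wild-type cells, by the interaction term of limma (knockout minus wild-type difference on the log2 scale, 3 arrays per group). The wild-type rise was the larger for Ifit3 (−3.94 ± 0.60, adjusted p = 0.0008), Rtp4 (−3.74 ± 0.47, adjusted p = 0.00021), Ifit1 (−3.47 ± 0.64, adjusted p = 0.0027), Ifit2 (−2.67 ± 0.73, adjusted p = 0.03) and Acod1 (−2.47 ± 0.58, adjusted p = 0.013). These values compare changes and not the levels reached. Ifit3 was at 10.58, 11.10 and 11.73 in unstimulated knockout cells and at 11.96, 11.91 and 12.02 at 6 h. The 3 unstimulated knockout arrays were spread over more than 1 log2 unit for Ifit1, Ifit2, Ifit3 and Acod1, with array 1 lowest, and the 6 h knockout arrays lay within 0.2 of each other for the same 4 genes. The response was larger in knockout cells for Il6 (3.22 ± 0.71, adjusted p = 0.009) and of opposite sign for Klf4 (2.38 ± 0.22, adjusted p = 1.7e-05).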

How the results depend on the processing

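With the replicate block, the paired analysis, 3002 genes were called at 6 h against unstimulated cells (1451 higher and 1551 lower), 2504 against 1 h and 4347 for the interaction. With only the groups compared the interaction had 1251 calls, and 6 h against 1 h had 3010 with the block as well. Array weights gave 2508 calls for 6 h against 1 h and 3268 for the interaction. All other settings kept these totals within 1.5-fold. Leaving out 1 array gave 901 to 1455 calls at 6 h (518 to 790 higher, 383 to 717 lower), 592 to 1098 against 1 h and 1284 to 2476 for the interaction. Of 245 called genes that the naming rule took, 161 kept the call in all of the 8 settings that tested them and in the 6 fits without 1 array. The uncalled difference of Ccl2 ran from −0.55 to 0.13 without 1 array, with the sign turned without unstimulated array 2 (0.10) or 3 (0.03) or 6 h array 1 (0.13). With 3 arrays a group, small changes of genes near the lowest readable signal could not be resolved.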
